A study of Mus musculus with 4 samples.

Results

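The epidermal growth factor (EGF) family ligands and their ErbB receptors were measured in hair follicle stem cells sorted from mice with and without the T-box transcription factor gene Tbx1. The group was defined by gene symbol and comprised 9 genes: the ligand genes Areg, Ereg, Hbegf, Btc and Tgfa, the receptor genes Egfr, Erbb2 and Erbb3, and Errfi1, which encodes an inhibitor of these receptors. Every probe set whose only gene symbol was one of these names was taken, which gave 18 probe sets of 8 genes among the 12384 named genes on the array. Areg had no probe set under its symbol and has no value here. Of the 8 genes, 6 were bright enough to be tested, while Ereg and Btc had a mean log2 intensity under 5.40, the limit for dim genes.

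Cells were isolated by flow cytometry by integrin α6, CD34 and yellow fluorescent protein (YFP) from back skin of female CD1/C57BL/6 mice of about postnatal day 60. The 4 arrays formed 2 groups of 2: Tbx1 conditional knockout (cKO) and wild type (WT), with 1 array of each genotype in set 1 and in set 2. The treatment text describes wax depilation of the back 48 h before harvest for all samples, whereas the sample descriptions call both arrays of set 1 quiescent and both of set 2 activated, so the sets are named by number. The labels do not name the Cre driver or the allele that carries YFP, nor whether different mice gave the arrays of a group. The spread behind the p-values is thus that between these arrays and may be technical, and 4 arrays limit the precision of all values. For 1 value in 2 arrays a group, 0.333 is the smallest p of an exact permutation test.

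Ligands of the EGF family are made as membrane-anchored precursors that are cut by ADAM proteases, and the released domain binds ErbB receptors on the same or neighbouring cells. Transforming growth factor α (Tgfa), amphiregulin (Areg), epiregulin (Ereg), heparin-binding EGF-like growth factor (Hbegf) and betacellulin (Btc) all bind the EGF receptor. In skin this receptor acts in keratinocyte growth and wound closure, and mice that lack Tgfa have wavy hair and whiskers. Bound receptors signal through the RAS-ERK and PI3K routes, and Errfi1 (also called Mig6) is induced by that signalling and blocks the receptor kinase.

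Genes of the bulge, the stem cell niche, were bright on all arrays: Cd34 read 8.85 to 9.46, Itga6 11.35 to 11.87 and Krt15 13.39 to 13.94 on the log2 scale. Tbx1 read 9.54 and 8.88 in cKO, against 10.53 and 10.37 in WT. The WT set 2 array stood apart in the nuclear RNA Malat1, at 12.35 against 9.80 to 10.56 on the others. The cKO set 1 array stood apart in the 3′ minus 5′ difference of the Dap control transcript, at 2.95 against 1.74 to 1.82, and also in that of the cells' own transcripts of β-actin (1.68 against 1.09 to 1.18) and Gapdh (0.68 against 0.24 to 0.34). That array enters every set 1 difference. Results are therefore also given without either array and between the remaining pair, cKO set 2 minus WT set 1, which mixes genotype with set and was added once the values were known. Endothelial markers were lower in cKO in 4 of 5 tested genes by limma's test, and their summed signal was 11.30 and 11.23 (log2) in WT and 7.44 and 7.54 in cKO. Their part in the differences below was not tested.

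The comparison of cKO with WT asked whether loss of Tbx1 goes with a difference in this family in the sorted cells. Both cKO arrays exceeded both WT arrays in Tgfa and Errfi1, narrowly in Erbb3, and in the dim genes Ereg and Btc. Hbegf was over 1.5-fold higher in cKO within set 2 alone, and the receptor genes differed little. None of the 6 tested members passed limma's test over 8031 genes at an adjusted p under 0.05, where 0.0872% of all genes passed. At an unadjusted p under 0.05, 2 of the 6 passed, Tgfa and Errfi1, against 14.2% of all genes. Within both sets, 4 of the 6 had positive differences, against 35.8% of all genes. The 6 mean differences had a median of 0.50, against 0.03 for all genes tested. Of these 6, 3 are receptor genes, whose values overlap or nearly meet between the genotypes. The members were chosen with earlier results of these data known, so these counts and medians are a description and no test. In these bulk samples, a different share of cells that express a gene and a different amount of its RNA per cell cannot be told apart.

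**Figure D1:**
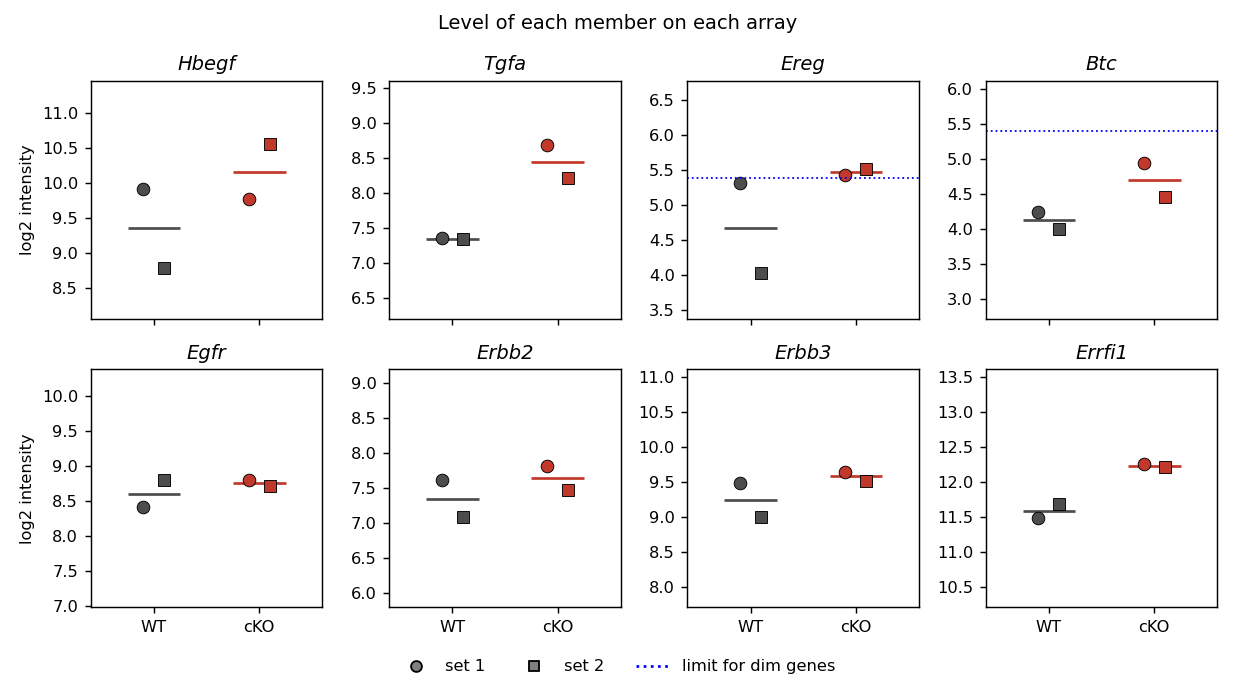
Log2 intensity (vertical axes, each spanning the same number of log2 units) of the probe set chosen for each of the 8 measured members in WT and cKO, with circles for set 1, squares for set 2 and bars for the group means; the dotted line marks the limit for dim genes, 5.40. The cKO points of Tgfa, Errfi1, Erbb3 and the dim genes Ereg and Btc lie above both WT points, in Erbb3 by only 0.04. The WT set 2 point of Hbegf lies at 8.79, below the other 3 arrays.

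Tgfa had the largest mean difference of the tested members. Its brightest probe set, 1421943_at, read 8.68 and 8.21 on the cKO arrays of set 1 and set 2 and 7.35 and 7.34 on the WT arrays. The WT arrays were thus nearly equal, and both cKO arrays lay well above them. Means were 8.44 ± 0.33 and 7.35 ± 0.0019 (SD, n = 2), a difference of 1.10 (SE 0.20) or 2.14-fold. By limma this did not pass over all genes (adjusted p = 0.162), nor with the set as a block (adjusted p = 0.0558). Within set 1 the difference was 1.33 and within set 2 it was 0.87, and Tgfa was the only one of the 6 tested members at least 1.5-fold higher in both. Among all genes tested, 3.04% met that limit upwards. The difference was 0.87 without the cKO set 1 array, 1.10 without the WT set 2 array and 0.87 between cKO set 2 and WT set 1 alone, so it was present without either array that stood apart.

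The 2 other probe sets of Tgfa were dim and showed no such difference in set 1. Probe set 1450421_at read 5.32 and 5.48 in cKO, against 5.38 and 5.01 in WT, and 1421942_s_at read 4.95 and 5.21 against 4.95 and 4.86. Both lay below the limit for dim genes on average, with differences of -0.06 and 0.00 in set 1 and 0.47 and 0.35 in set 2. When the 3 probe sets were averaged, the Tgfa difference was 0.49 and no longer reached 1.5-fold in both sets.

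Errfi1, the receptor inhibitor, was the other tested member with an unadjusted p under 0.05. Probe set 1416129_at read 12.26 and 12.21 in cKO, against 11.48 and 11.69 in WT. Group means were 12.23 ± 0.04 and 11.58 ± 0.15 (SD, n = 2), a difference of 0.65 (SE 0.17) that did not pass limma's test (adjusted p = 0.231). It was 0.78 within set 1 and 0.52 within set 2, or 1.72-fold and 1.43-fold. The second probe set, 1419816_s_at, gave 0.54 and 0.45, with 9.60 and 9.88 in cKO, against 9.06 and 9.44 in WT. Both probe sets thus had the cKO arrays above the WT arrays. Without the cKO set 1 array the Errfi1 difference was 0.62, without the WT set 2 array 0.75, and between cKO set 2 and WT set 1 alone 0.73.

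**Figure D2:**
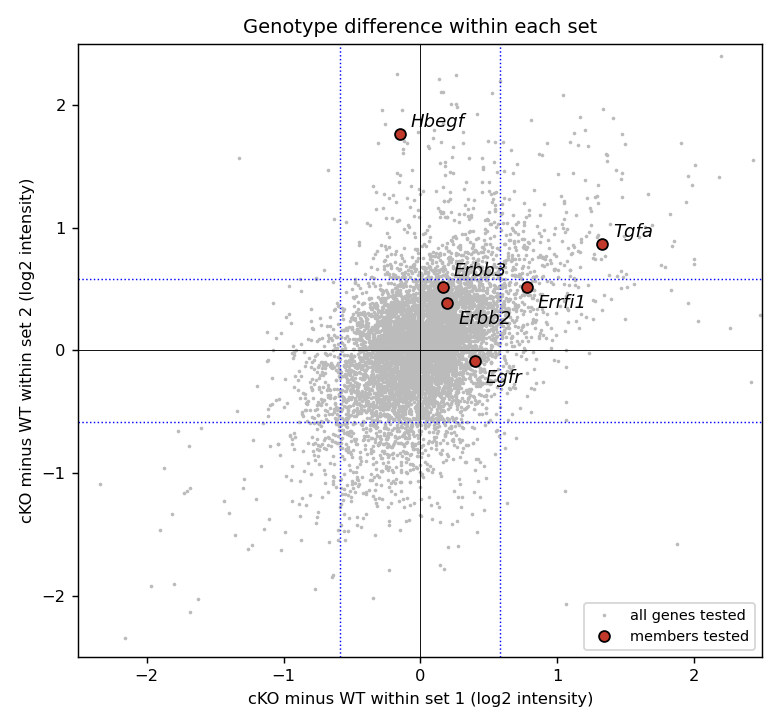
The cKO minus WT difference within set 1 (horizontal axis) against that within set 2 (vertical axis), in log2 intensity, for all genes tested (grey) and the 6 tested members (red); dotted lines mark 1.5-fold, and 33 genes lie outside the axes. Tgfa lies beyond 1.5-fold in both sets, Errfi1 in set 1 alone and Hbegf in set 2 alone.

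Start-site windows of 300 bases, from 250 before to 50 after the annotated start, were matched by symbol for 6 of the 9 genes in RefSeq's GRCm38.p6 annotation: Areg, Btc, Egfr, Erbb2, Errfi1 and Tgfa. The windows of Tgfa and Errfi1 are shown because these were the tested members with an unadjusted p under 0.05 between genotypes. These windows differ in part in their matches. Capitals mark the motifs found on either strand, 5′ to 3′, among a TATA box (TATAAA), a cyclic AMP response element (TGACGTCA), a GC box (GGGCGG, or CCGCCC on the other strand), an AP-1 site (TGACTCA or TGAGTCA) and a T-box half-site (AGGTGTGA or TCACACCT). The motifs were chosen after the values were known. The Tgfa window lies at chr6:86194972-86195271 and the Errfi1 window at chr4:150854820-150855119, both on the plus strand.
Tgfa: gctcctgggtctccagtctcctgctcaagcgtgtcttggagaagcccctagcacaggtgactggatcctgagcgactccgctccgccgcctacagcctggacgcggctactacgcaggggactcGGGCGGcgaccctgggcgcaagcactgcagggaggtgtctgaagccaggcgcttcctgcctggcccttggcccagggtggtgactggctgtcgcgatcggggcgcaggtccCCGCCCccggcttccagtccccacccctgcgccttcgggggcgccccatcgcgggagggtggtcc
Errfi1: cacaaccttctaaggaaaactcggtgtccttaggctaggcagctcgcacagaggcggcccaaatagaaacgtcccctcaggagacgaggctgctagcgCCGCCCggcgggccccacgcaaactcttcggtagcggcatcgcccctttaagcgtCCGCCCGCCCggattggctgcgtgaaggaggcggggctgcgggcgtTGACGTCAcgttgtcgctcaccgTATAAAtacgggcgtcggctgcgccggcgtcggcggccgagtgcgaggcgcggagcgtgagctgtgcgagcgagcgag
In the Tgfa window only GC boxes matched, starting at -126 and -15 from the start site, and 70.7% of its bases are G or C. The Errfi1 window held a TATA box at -28, a cyclic AMP response element at -51 and GC boxes at -152, -97 and -93, of which the last pair overlap, with 66.7% G or C. Of all 32851 windows of this length, 13.6% held the TATA motif, 1.79% the cyclic AMP response element, 35.7% a GC box, 5.20% the AP-1 site and 1.28% the T-box half-site. The window of a further annotated Errfi1 start, at chr4:150853546-150853845, held none of these letters. The Areg window, like the Errfi1 window shown, held a TATA box (-31), a cyclic AMP response element (-61) and GC boxes (-52 and 38). No T-box half-site or AP-1 site matched in any window of the 6 genes. A match is a description of the letters and no measure of binding.

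Hbegf, whose product also anchors to heparan sulphate and is induced in wounded epidermis, had a large difference between genotypes in set 2 and a small one in set 1. Probe set 1418350_at read 9.77 in cKO and 9.92 in WT of set 1, and 10.56 in cKO and 8.79 in WT of set 2. The genotypes overlapped, since WT set 1 lay above cKO set 1. The within-set differences were -0.15 and 1.77. At least 1.5-fold either way within set 2, 2 of the 6 tested members differed (Hbegf and Tgfa), against 17.3% of all genes tested. For Hbegf the mean difference of 0.81 (SE 0.43) did not pass limma's test (adjusted p = 0.456). A second probe set, 1418349_at, had the same pattern, with 8.93 against 8.84 in set 1 and 9.46 against 7.63 in set 2. Without the WT set 2 array the Hbegf difference was 0.25, without the cKO set 1 array 1.20, and between cKO set 2 and WT set 1 alone 0.64. With 1 array per genotype in a set, the difference between the sets was not tested.

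Ereg, a ligand of low affinity and broad receptor use, was dim, and, as with Hbegf, its larger difference was within set 2. The only Ereg probe set gave 5.44 and 5.52 in cKO, against 5.31 and 4.03 in WT, above the limit for dim genes on the cKO arrays alone. Between genotypes Ereg differed by 0.12 (set 1) and 1.49 (set 2), and with dim genes kept limma gave an adjusted p of 0.496. The WT set 2 array was again the lowest. Btc was below the limit on every array: its brighter probe set read 4.95 and 4.46 in cKO, against 4.24 and 4.004 in WT, and the other 3.85 and 4.01 against 3.82 and 3.67. The Btc differences of 0.71 (set 1) and 0.46 (set 2) at its brighter probe set are thus between values below that limit. That probe set was highest on cKO set 1 and lowest on WT set 2, the arrays that stood apart. Between cKO set 2 and WT set 1 alone the difference was 0.21 for Ereg and 0.22 for Btc. Fits with an array left out covered tested genes only. With dim genes kept, limma gave Btc an unadjusted p of 0.0376 and an adjusted p of 0.367.

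The WT set 2 array was the lowest of the 4 for 4 of the 6 tested members (Hbegf, Tgfa, Erbb2 and Erbb3) and for the dim genes Ereg and Btc. It was the lowest for 39.6% of all genes tested, so the members' count is to be read against a high background. For Tgfa it tied with WT set 1 to within 0.003. Suprabasal and wound keratinocyte markers had their lowest value there in 10 of 11 tested genes, with summed signals of 15.17 and 15.36 (log2) in cKO, against 15.18 and 14.24 in WT. Their cKO minus WT medians were 0.26 (set 1) and 2.66 (set 2), and Krt6b read 7.80 on WT set 2 against 10.96 to 11.45 elsewhere. Dissociation and immediate early genes were lowest on that array in 13 of 15 cases, with median differences between the genotypes of 0.01 (set 1) and 0.45 (set 2). The part of these cells and genes in the Hbegf and Ereg values was not tested.

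Receptor genes had small differences. Egfr, the receptor shared by all these ligands, read 8.80 and 8.71 in cKO, against 8.41 and 8.79 in WT at its brightest probe set, 1424932_at. The genotypes overlapped, with 0.40 in set 1, -0.09 in set 2 and a mean of 0.16 (SE 0.19, limma adjusted p = 0.756). Its next probe set, 1460420_a_at, read 7.14 and 7.23 in cKO, against 7.13 and 7.29 in WT. The 3 dimmer probe sets read 5.31 and 5.79 against 5.43 and 5.79, 4.83 and 5.20 against 4.83 and 5.59, and 4.89 and 4.86 against 4.79 and 4.63, in the same order. Over all 5 Egfr probe sets the within-set differences ran from -0.39 to 0.40, and none reached 1.5-fold. The mean difference at the brightest turned to -0.04 when WT set 1 was left out. It was 0.11 without the cKO set 1 array, 0.35 without the WT set 2 array and 0.30 between cKO set 2 and WT set 1 alone.

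Erbb2, the partner receptor that binds no ligand of its own, read 7.81 and 7.47 in cKO, against 7.61 and 7.08 in WT. The difference was 0.20 in set 1 and 0.39 in set 2, with a mean of 0.29 (SE 0.24, limma adjusted p = 0.624), and the groups overlapped. It was 0.12 without the cKO set 1 array, 0.03 without the WT set 2 array and -0.14 between cKO set 2 and WT set 1 alone. Erbb3, a receptor for neuregulins with little kinase activity, read 9.64 and 9.51 in cKO, against 9.48 and 8.99 in WT. Both cKO arrays lay above both WT arrays, yet by only 0.04 between the nearest, and the mean difference of 0.34 (SE 0.21) did not pass (limma adjusted p = 0.515). It was 0.28 without the cKO set 1 array, 0.10 without the WT set 2 array and 0.04 between cKO set 2 and WT set 1 alone. The dim second Erbb3 probe set read 4.10 and 4.70 in cKO, against 4.31 and 3.96 in WT. In all, both cKO arrays exceeded both WT arrays in 3 of the 6 tested members (Tgfa, Errfi1 and Erbb3), against 26.7% of all genes tested.

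Erbb3 is also a gene of melanocytes and Schwann cells. Of 7 melanocyte markers with a probe set, 4 were tested and none passed limma's test: Mitf read 6.63 to 7.69, Dct 6.07 to 6.72, Pmel 5.39 to 6.10 and Sox10 5.33 to 5.80. In both sets 3 of these 4 were higher in cKO and 0 lower, where 35.8% of all genes tested were higher in both. Tyrp1, Tyr and Kit lay below the limit for dim genes on all arrays, and the summed melanocyte signal was 8.75 and 8.79 (log2) in cKO, against 8.28 and 8.63 in WT. Of 5 tested Schwann markers none passed, with 4 higher and 1 lower in cKO in both sets, beside the same 35.8% of all genes higher. Their within-set differences ran from those of Mbp (0.72 and 0.62) to those of Ngfr (-0.01 and -0.51). The summed Schwann signal was 12.24 and 12.05 (log2) in cKO, against 11.92 and 11.61 in WT, most of it from Egr2, also an immediate early gene. The part of such cells in the Erbb3 value was not tested. Of 16 immune markers with a probe set, 12 were below the limit on every array, Ptprc and Cd3e among them, and the others were Cd74, Csf1r and the genes Epcam and Gata3, which keratinocytes also express.

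**Figure D3:**
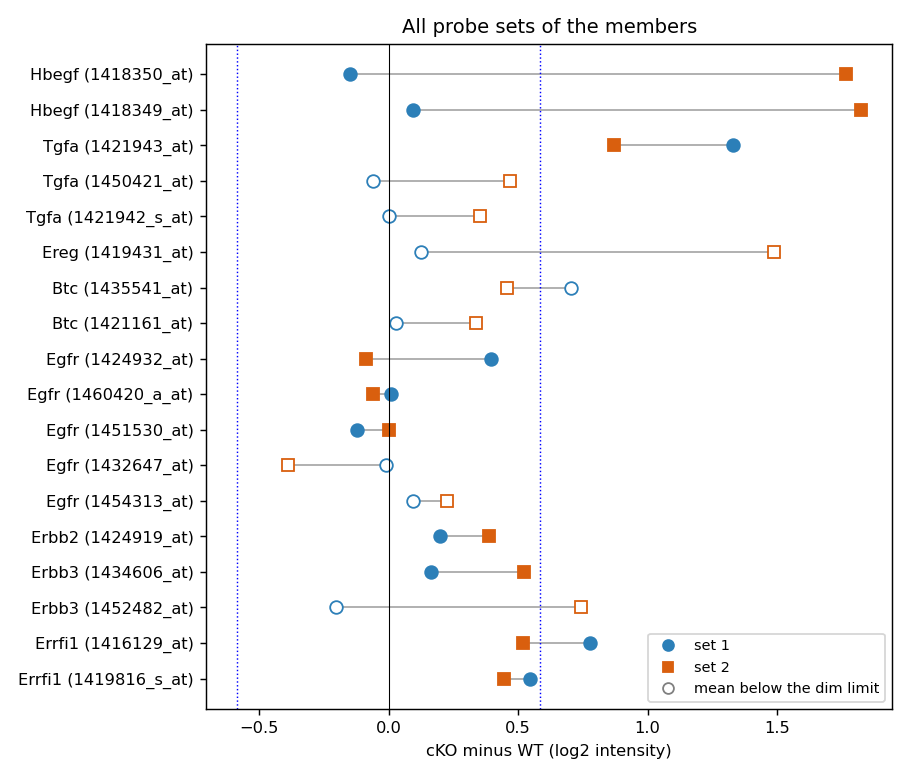
The cKO minus WT difference (horizontal axis, log2 intensity) within set 1 (circles) and set 2 (squares) for each of the 18 probe sets of the members, with open symbols where the mean level lies below the limit for dim genes and dotted lines at 1.5-fold. Both Hbegf probe sets are far to the right in set 2 alone, both Errfi1 probe sets are to the right in both sets, and Tgfa is so at its brightest probe set only.

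Set 2 was compared with set 1, called activated and quiescent in the descriptions. No member passed limma's test (adjusted p = 0.999 for all 6), nor did any of the 8031 genes (0.0%). At an unadjusted p under 0.05, 0 members and 230 genes (2.86%) passed. The mean differences ran from -0.43 for Erbb2 to 0.15 for Egfr, with a median of -0.20 against -0.05 for all genes. Erbb2 was lower in set 2 in both genotypes, by values of -0.34 in cKO and -0.53 in WT, and Erbb3 read -0.13 and -0.48. Hbegf went opposite ways, at 0.79 in cKO and -1.13 in WT, and Ereg read 0.08 and -1.28. Tgfa differed by -0.46 in cKO, with WT arrays of 7.35 and 7.34, and Errfi1 by -0.05 and 0.21. Leaving out 1 array turned the sign of 4 members: Hbegf was 0.71 without WT set 2, Tgfa 0.43 without cKO set 1 and 0.20 without WT set 2, Egfr -0.05 without WT set 1, and Errfi1 -0.31 without WT set 1 and -0.18 without cKO set 2. The set comparison uses the same 4 arrays as the genotype comparison.

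The other genes of the pathway were read from 7 lists of 76 genes, of which 51 were tested. None passed limma's test between genotypes or between sets. At an unadjusted p under 0.05, 6 passed between genotypes (11.8%, against 14.2% of all genes) and 2 between sets (3.92%, against 2.86%), so the genotype count was no higher than the background. Their median cKO minus WT difference was 0.11, against 0.03 for all genes. At least 1.5-fold in the same direction in both sets, 3 genes were higher in cKO (5.88%, against 3.04% of all genes) and 0 lower (against 1.64%). The lists, too, were chosen with earlier results of these data known, so their counts are a description.

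Of the remaining ligands, only Epgn was bright enough to be tested: it read 11.44 and 11.77 in cKO, against 11.65 and 12.07 in WT. Epigen, its product, is a ligand of the EGF receptor. Its differences of -0.21 and -0.30 ran against those of Tgfa, but did not pass (limma adjusted p = 0.632). Egf, Nrg3, Nrg4 and the receptor gene Erbb4 lay below the limit on all arrays.

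None of the 6 tested shedding genes, 11 inhibitor and degradation genes or 12 adaptor and RAS-ERK genes differed by 1.5-fold in both sets. Their median differences were 0.19, -0.02 and 0.04. Adam17, the main sheddase of Tgfa and Areg, had 0.29 and -0.07, and Lrig1, a stem cell protein that promotes receptor degradation, had -0.14 and 0.14. The PI3K, PLC and STAT list had a median of 0.35 over 8 genes. Of these 8, 4 had an unadjusted p under 0.05 by limma between genotypes, against 14.2% of all genes. They were Pik3r1, Stat3, Stat5a and Stat5b. The transcription factor gene Stat5a read 6.92 and 6.34 in cKO, against 6.13 and 5.47 in WT, a difference of 0.84 (SE 0.30, limma adjusted p = 0.324). Between cKO set 2 and WT set 1 alone the Stat5a difference was 0.21.

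Genes induced by ERK signalling had a median of 0.21 over 13 tested genes, against 0.03 for all genes. Of the 13, 9 had positive values in both sets, against 35.8% of all genes. Etv4 had negative values in both, -0.17 and -0.06, and the others had opposite signs, such as Plaur at -0.79 and 0.18. WT set 2 was the lowest array for 9 of the 13, against 39.6% of all genes. The part of that array in these values was not tested. Spry1, a feedback inhibitor of RAS-ERK signalling, read 8.83 and 7.91 in cKO, against 7.59 and 6.75 in WT. The 1.20 difference (SE 0.39) did not pass limma's test (adjusted p = 0.297), and passed with the set as a block (adjusted p = 0.0305), where 1.03% of all genes passed. Between cKO set 2 and WT set 1 alone the Spry1 difference was 0.32. Its highest array was cKO set 1 and its lowest WT set 2, the arrays that stood apart. The same held for Stat5a and Myc, and for the members Tgfa, Erbb2, Erbb3 and Btc. Myc read 10.70 and 10.62 against 9.90 and 9.52, a difference of 0.95 (SE 0.19, limma adjusted p = 0.172). For Myc that pair gave 0.72. Dusp6, an ERK phosphatase gene that follows ERK activity closely, had 0.05 and 0.37, and Egr1 had 0.04 and 0.23. Of the 13, 2 (Spry1 and Myc) were at least 1.5-fold higher in both sets and 0 lower, against 3.04% and 1.64% of all genes.

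**Figure D4:**
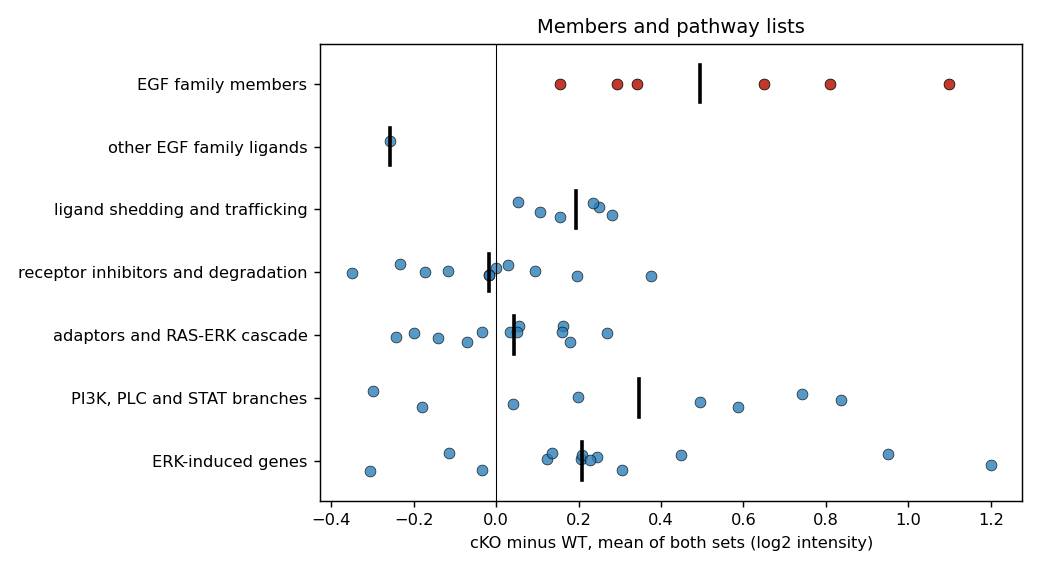
Mean cKO minus WT difference (horizontal axis, log2 intensity) of the 6 tested members (red) and of each tested gene of the pathway lists (blue), with a black bar at each median; vertical scatter within a list has no meaning. The member median is 0.50, and the largest values among the lists are those of Spry1 (1.20) and Myc (0.95).

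Only Hbegf and Tgfa of the tested members ranged over at least 1 log2 unit across the arrays (2 of 6, against 10.2% of all genes), and the 2 genes most like each were found among 8030 others by the distance between mean-centred profiles of the 4 arrays. For Hbegf these were Maff (distance 0.17), a small MAF transcription factor gene, and Tmprss4 (0.19), a membrane serine protease gene. Maff read 9.52 and 10.17 in cKO, against 9.42 and 8.44 in WT. For Tgfa they were Fam13c (0.12) and Col6a1 (0.12), a collagen VI chain gene, which read 9.26 and 8.95 in cKO, against 7.97 and 8.03 in WT. A profile of 4 arrays holds little detail.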

How the data were processed

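RNA from the sorted cells was extracted with Trizol and 2 µg of it was made into biotin-labelled cRNA for hybridisation on Affymetrix microarrays, per the protocols in the labels. The authors deposited intensity values for 22690 probe sets, and RMA is named in the submitters' processing notes, with version and settings not given in the sources used here. Values ran from 5.29 to 25561 and the array medians from 82.0 to 83.3; the scale was therefore read as linear, and log2 was taken. Names came from the platform annotation, where 20380 probe sets had 1 symbol, 691 several and 1555 none, and 64 were controls. The files name no genome build.

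The brightest probe set on average stood for each gene. Xist and Y-linked genes were left out, as were genes under percentile 40 of the probe set means (log2 5.40), which left 8031. All 4 arrays entered each of the 2 comparisons, fitted without covariates by lmFit and eBayes of limma 3.58.1 (R 4.3.3). P-values were adjusted by Benjamini-Hochberg, and 0.05 was the threshold. The fit was run on simulated data with independent noise, no set difference and no array that stood apart. That run does not cover such arrays, and its outcome is not given here. Arrays of 1 set share a state in the descriptions, so the set number was read as pairing them; deviations of same-numbered arrays correlated with r = 0.19 across genes, and a fit with the set as a block was among the alternatives. The members and lists were chosen with earlier results of these data known. Named pathway genes were those passing in either comparison or, failing that, up to 3 per list at least 1.5-fold apart one way in both sets. Other pathway and marker genes named in the text (Epgn, Adam17, Lrig1, Dusp6, Egr1 and the markers) were chosen for their roles after their values were seen. Since RMA makes no detection calls, dimness rests on level alone.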

Additional observations from a re-analysis of the deposited data

How the results depend on the processing

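No member passed limma's threshold in either comparison under any alternative run: no filter on dim genes, percentile 60, the mean of probe sets, each probe set, quantile normalisation, median centring, a variance trend with robust fitting, a pseudocount of 16, the replicate block and each array left out. Of 170 member values under these settings and between cKO set 2 and WT set 1 alone, 160 kept their direction and 10 turned. The filter settings, the variance trend with robust fitting and the block leave each difference unchanged, so their values could not turn. The same holds for the brightest probe set taken on its own. Between genotypes, Egfr was -0.060 and -0.026 at other probe sets and -0.040 to 0.35 with an array left out, and Erbb2 was -0.14 between cKO set 2 and WT set 1 alone. Between sets, leaving out an array gave -1.05 to 0.71 for Hbegf, -0.90 to 0.43 for Tgfa, -0.050 to 0.35 for Egfr and -0.31 to 0.47 for Errfi1. The count of members at least 1.5-fold apart in both sets, 1, was 0 at 2-fold, 2 at a lower fold limit (Tgfa and Errfi1) and 0 with the mean of probe sets. Over all genes, limma's 7 calls between genotypes were 0 at percentile 60, 28 with a variance trend and robust fitting together, 83 with the replicate block and 2 to 16 with an array left out (2 without WT set 2, 16 without cKO set 2); the causes were not tested. The replicate block gave 1 call among the pathway genes between genotypes, Spry1, and with the genotype as a block 1 gene over all between sets, and changed no call of a member. The number of arrays and the dim signal of Ereg and Btc limit all values.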
